A study of Mus musculus with 6 samples.

Results

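Metallothioneins and zinc transport genes are described here in cultured mouse kidney epithelial cells, as 10 genes of the 49671 with a count in each library. They are the metallothioneins Mt1 and Mt2, the metal sensor Mtf1, the zinc exporters Slc30a1, Slc30a3, Slc30a4 and Slc30a5, and the zinc importers Slc39a1, Slc39a6 and Slc39a10. The genes were chosen by their place in this system together with their Cre over Flp ratios in these same libraries, so their ratios, and the counts of calls that any test of them gives, are a description and no support. All 10 passed the filter on low counts that left 15355 genes for testing.

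Total RNA came from confluent cultures of induced renal epithelial cells (iRECs), a tubule-like cell made from fibroblasts with renal transcription factors, of the strain B6.129S4-Pkd1tm2Ggg/J. All cultures came from cells floxed at Pkd1, the polycystin-1 gene, and were kept in DMEM with 10% fetal bovine serum and 5% CO2. The Cre group was transduced with Cre recombinase and is labelled Pkd1 -/-. The Flp group was transduced with Flp recombinase and is labelled Pkd1 fl/fl, wild type, with the floxed gene kept. Each group had 1 library from each of clones 4, 7 and 21, so each genotype rests on 3 clones, and each Cre clone was set against its own Flp clone. Animals of origin are not given in the labels, so the spread below is that between clones, which may share a source.

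Metallothioneins are small cysteine-rich proteins that bind zinc, copper and cadmium, and their genes are switched on when free zinc rises. The sensor is metal regulatory transcription factor 1, the product of Mtf1, which binds metal response elements in the promoters of Mt1, Mt2 and Slc30a1. SLC30 proteins (ZnT) carry zinc out of the cytosol to the outside or into organelles, and SLC39 proteins (ZIP) carry it into the cytosol. Kidney tubule cells take up filtered zinc and store metal on metallothionein.

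Total counts were 29451753 to 46918341 in Cre and 25196120 to 40274665 in Flp libraries. The floor of 3 counts, which a count of 0 allows, was 0.0632 CPM in Cre clone 21 and 0.121 CPM in Flp clone 4, and such floors, like the intervals below, cover counting error only. CPM are counts relative to the TMM-scaled library size. Pkd1 itself was at 145, 105 and 118 CPM in Cre clones 4, 7 and 21, against 199, 229 and 166 CPM in the Flp clones, so every Cre library lay below every Flp library. Its counts cover the whole gene and not only the floxed exons, so they check the labels in part. The 9 renal tubule markers summed to 5258 to 6619 CPM in Cre and 5466 to 6808 CPM in Flp libraries, with none at 0. The 6 fibroblast markers summed to 139 to 285 CPM in Cre and 222 to 311 CPM in Flp, most of it Vim, with Thy1 at 0. The 5 endothelial markers summed to 2.57 to 5.28 CPM in Cre and 2.66 to 4.54 CPM in Flp, with Cdh5 and Kdr at 0. The 5 haematopoietic markers summed to 193 to 299 CPM in Cre and 118 to 204 CPM in Flp, most of it Csf1r, with Adgre1 at 0. The part of these lists in the results below was not tested.

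Mt1 and Mt2 were higher in the Cre culture of each of the 3 clones. Mt1 (ENSMUSG00000031765, chromosome 8, 94179082 to 94180327, plus strand, GRCm38) was at 184, 1008 and 493 CPM in Cre clones 4, 7 and 21, against 102, 213 and 109 CPM in Flp clones 4, 7 and 21. Cre clone 7 was the highest library, and Cre clone 4 lay below Flp clone 7, so the groups overlapped by that pair. Over the 3 clones Mt1 averaged 561 CPM (SD 417) in Cre and 141 CPM (SD 62.5) in Flp. Log2 ratios of Cre over Flp for clones 4, 7 and 21 were 0.85, 2.24 and 2.18, with an SD of 0.79. The fitted log2 fold change was 1.76 (SE 0.30). Here and below this SE was derived from the F test of the fit, and it does not measure the spread of the clone ratios. In bulk RNA, more transcript per cell and more cells with the transcript cannot be told apart.

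Mt2 (ENSMUSG00000031762, chromosome 8, 94172664 to 94173568, plus strand) was at 43.1, 194 and 158 CPM in Cre clones 4, 7 and 21, against 11.2, 43.9 and 22.6 CPM in the Flp clones. Cre clone 4 and Flp clone 7 were again the pair that overlapped, by less than 1 CPM. Its log2 ratios were 1.94, 2.14 and 2.80 in clones 4, 7 and 21. Mt2 is the neighbour of Mt1 on the same strand, and in 2 of the clones the counting intervals of their ratios did not overlap. These intervals leave out variation between libraries, since each clone has 1 Cre and 1 Flp library. Most exon bases of Mt2 are also shared with another gene, as described below. Whether the ratios of the 2 genes differ beyond this was not tested. In clone 4 the Cre over Flp ratio was 1.80 for Mt1 (95% exact interval 1.72 to 1.88) and 3.85 for Mt2 (3.39 to 4.39). In clone 21 it was 4.53 for Mt1 (4.36 to 4.71) and 6.98 for Mt2 (6.42 to 7.60). In clone 7 the ratio was 4.72 for Mt1 (4.61 to 4.84) and 4.42 for Mt2 (4.19 to 4.67), with overlapping intervals. The number of Mt1 reads per Mt2 read was 4.26, 5.19 and 3.12 in Cre clones 4, 7 and 21, against 9.12, 4.86 and 4.81 in the Flp clones. Flp clone 4 stood apart here, and it was the library with the fewest Mt2 reads (277).

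**Figure D1:**
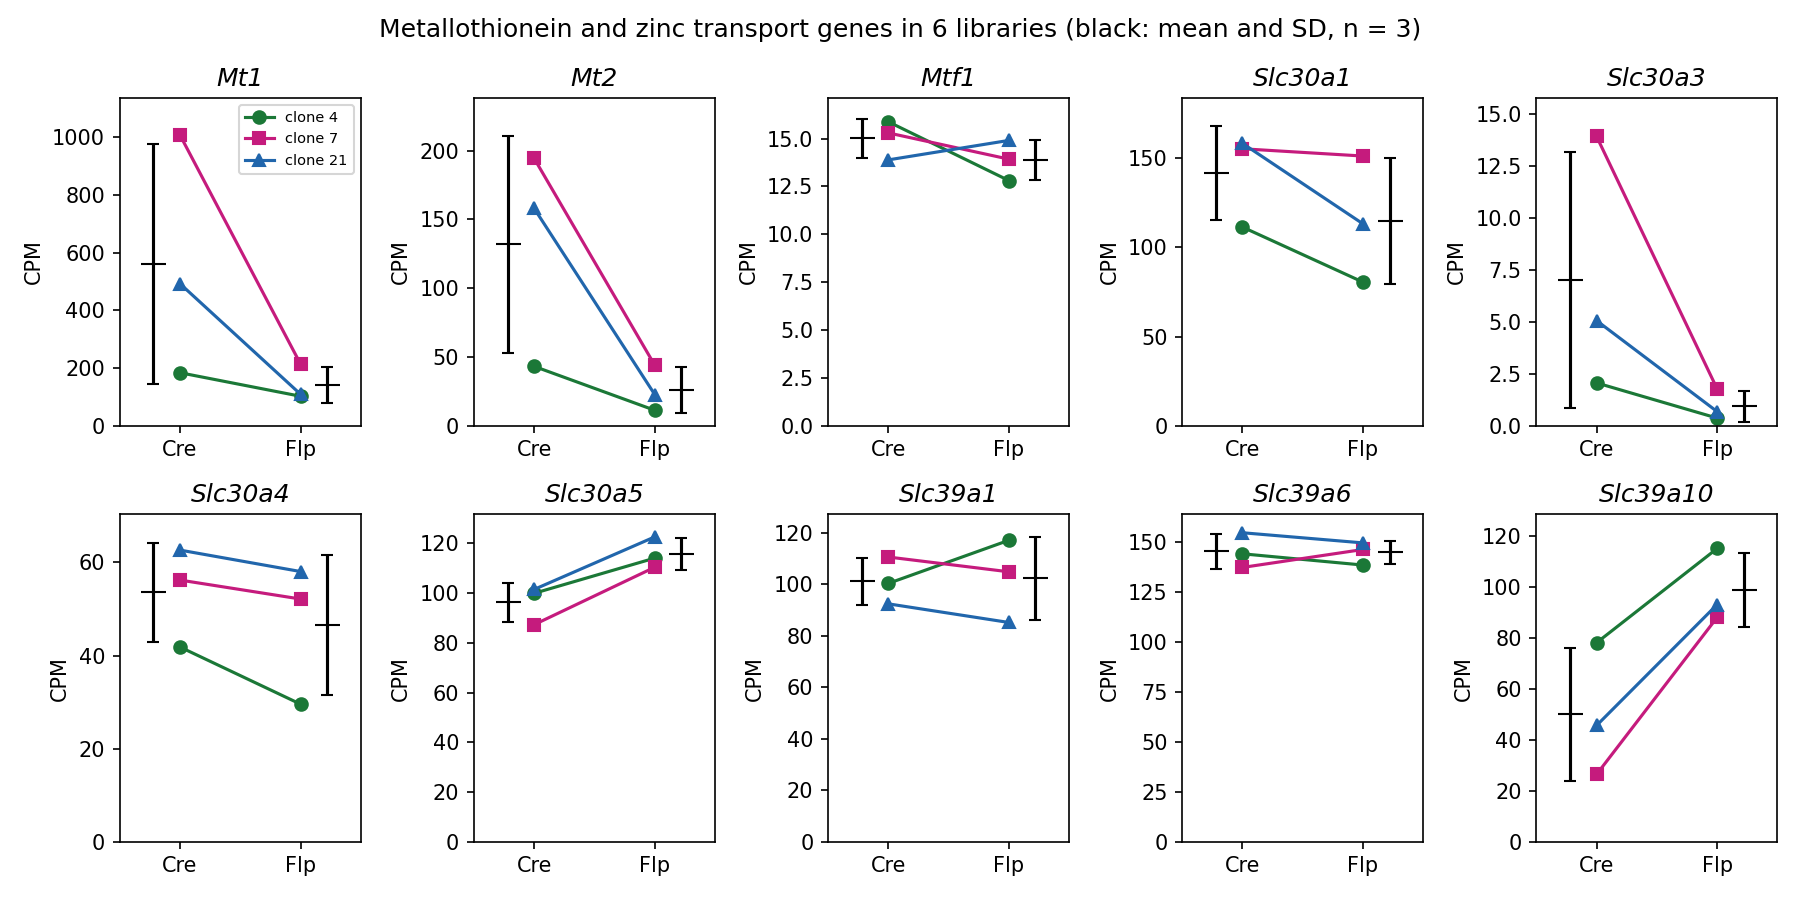
Level of each gene in CPM (vertical axes from 0, a scale per panel) in the Cre and Flp libraries of clones 4 (circles), 7 (squares) and 21 (triangles); lines join a clone's libraries, and black bars are mean and SD (n = 3). Mt1, Mt2 and Slc30a3 lines go up towards Cre in each clone and Slc39a10 lines go down, while Mtf1, Slc39a1 and Slc39a6 lines cross.

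The promoters of Mt1, Mt2 and Slc30a1 are printed because these are the textbook target genes of the metal sensor. The windows run from 250 bases before to 50 bases after the RefSeq transcription start (GRCm38.p6), on the plus strand, and capitals mark each match to the metal response element core. The core was searched as TGCACNC or TGCGCNC on both strands, so a match on the minus strand is shown as GNGTGCA or GNGCGCA. In the order below the windows are chr8:94178839-94179138, chr8:94172368-94172667 and chr1:191906531-191906830.
Mt1: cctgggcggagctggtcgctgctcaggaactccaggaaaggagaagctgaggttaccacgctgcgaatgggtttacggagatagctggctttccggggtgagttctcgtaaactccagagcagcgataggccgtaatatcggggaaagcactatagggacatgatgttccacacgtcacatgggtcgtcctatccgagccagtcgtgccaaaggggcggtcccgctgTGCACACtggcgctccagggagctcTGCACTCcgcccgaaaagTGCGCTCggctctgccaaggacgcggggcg
Mt2: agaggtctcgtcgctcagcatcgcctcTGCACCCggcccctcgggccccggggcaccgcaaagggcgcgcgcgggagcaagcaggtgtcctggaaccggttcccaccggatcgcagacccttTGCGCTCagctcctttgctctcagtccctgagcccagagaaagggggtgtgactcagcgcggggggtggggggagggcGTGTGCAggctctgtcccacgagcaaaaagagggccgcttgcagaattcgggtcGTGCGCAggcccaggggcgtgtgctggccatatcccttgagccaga
Slc30a1: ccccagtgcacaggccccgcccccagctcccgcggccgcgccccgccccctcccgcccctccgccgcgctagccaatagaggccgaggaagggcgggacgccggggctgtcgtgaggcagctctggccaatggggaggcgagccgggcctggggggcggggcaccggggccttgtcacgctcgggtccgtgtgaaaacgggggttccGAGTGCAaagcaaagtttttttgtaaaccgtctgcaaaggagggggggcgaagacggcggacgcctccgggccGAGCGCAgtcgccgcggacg

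The Mt1 window held 3 matches, the Mt2 window 4 and the Slc30a1 window 2. In the Mt1 window they began 23 bases before the RefSeq start, 2 bases after it and 20 bases after it. Other annotated Mt1 transcripts start at 94179211 and 94179241, downstream of this window, so the bases next to those starts were not searched. In the Mt2 window they began 223, 128 and 50 bases before the start and 4 bases after it, and in the Slc30a1 window 43 bases before and 30 bases after it. Of all 32851 promoter windows of this length, 25.7% held at least 1 match, 7.11% at least 2, 1.97% at least 3 and 0.517% at least 4. Slc30a4 also held 3 matches, Slc30a5 held 1, and 1 of the 2 windows of Slc30a3 held 1 and the other 0. Mtf1, Slc39a1 and both windows of Slc39a10 held 0. The windows covered 9 of the 10 genes, and a match describes the letters only.

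Mtf1 (ENSMUSG00000028890, chromosome 4, 124802104 to 124849800), the sensor, was at 15.9, 15.3 and 13.9 CPM in Cre clones 4, 7 and 21, against 12.8, 13.9 and 14.9 CPM in the Flp clones. The groups overlapped, and its log2 ratios of 0.31, 0.14 and -0.10 did not share a direction. The fitted log2 fold change was 0.11 (SE 0.18), smaller than its error. This is the level of the transcript, and the sensor's activity was not measured.

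Among the exporters, Slc30a3 had the largest fitted ratio of the 10 genes. Slc30a3 (ENSMUSG00000029151, chromosome 5, 31086106 to 31108237) encodes ZnT3, known for loading zinc into synaptic vesicles of neurons. It was at 2.06, 13.9 and 5.06 CPM in Cre clones 4, 7 and 21, against 0.363, 1.77 and 0.676 CPM in the Flp clones. Every Cre library lay above every Flp library. These levels rest on 87, 406 and 240 reads in Cre and 9, 71 and 18 reads in Flp. The Cre over Flp ratio was 5.66 in clone 4 (95% exact interval 2.85 to 12.8), 7.89 in clone 7 (6.12 to 10.3) and 7.48 in clone 21 (4.63 to 12.8), intervals that overlap. The fitted log2 fold change was 2.82 (SE 0.30). The 5 neuronal markers summed to 0.253 to 0.355 CPM in Cre and 0.150 to 0.323 CPM in Flp, with Snap25 and Stmn2 at 0, so a neuronal transcript set was near 0 in both groups.

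Slc30a1 (ENSMUSG00000037434, chromosome 1, 191906767 to 191913247) encodes ZnT1, the exporter of the plasma membrane. It was at 111, 155 and 158 CPM in Cre clones 4, 7 and 21, against 80.5, 151 and 113 CPM in the Flp clones. The groups overlapped, with Flp clone 7 beside the highest Cre libraries. Its log2 ratios were 0.47, 0.04 and 0.48, and in clone 7 the ratio of 1.03 had a counting interval (0.988 to 1.07) that included 1.

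Slc30a4 (ENSMUSG00000005802, chromosome 2, 122681233 to 122702663), an exporter that loads vesicles, was at 41.8, 56.2 and 62.6 CPM in Cre clones 4, 7 and 21, against 29.6, 52.1 and 58.0 CPM in the Flp clones. Its log2 ratios were 0.50, 0.11 and 0.11, with the groups overlapping. Slc30a5 (ENSMUSG00000021629, chromosome 13, 100802648 to 100833427) supplies zinc to enzymes of the secretory pathway. It was at 99.9, 87.3 and 101 CPM in Cre clones 4, 7 and 21, against 114, 110 and 123 CPM in the Flp clones. Every Cre library of Slc30a5 lay below every Flp library, at log2 ratios of -0.19, -0.34 and -0.27. Its SDs were 7.77 CPM over the Cre and 6.26 CPM over the Flp libraries.

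Of the importers, Slc39a10 was lower in Cre in each clone and the other 2 were not. Slc39a10 (ENSMUSG00000025986, chromosome 1, 46807544 to 46892852) encodes ZIP10, a plasma membrane importer. It was at 78.1, 26.5 and 45.6 CPM in Cre clones 4, 7 and 21, against 115, 88.0 and 93.0 CPM in the Flp clones. Every Cre library lay below every Flp library, and Cre clone 7 was the lowest. Over the 3 clones it averaged 50.1 CPM (SD 26.1) in Cre and 98.7 CPM (SD 14.4) in Flp, with log2 ratios of -0.56, -1.73 and -1.03 and a fitted log2 fold change of -1.10 (SE 0.23).

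Slc39a6 (ENSMUSG00000024270, chromosome 18, 24579881 to 24603817) encodes ZIP6, the closest relative of ZIP10. It was at 144, 137 and 155 CPM in Cre clones 4, 7 and 21, against 139, 146 and 150 CPM in the Flp clones, with a fitted log2 fold change of 0.00 (SE 0.10). Slc39a1 (ENSMUSG00000052310, chromosome 3, 90248172 to 90253612), which encodes the plasma membrane importer ZIP1, was at 100, 111 and 92.4 CPM in Cre clones 4, 7 and 21, against 117, 105 and 85.2 CPM in the Flp clones. Its fitted log2 fold change was -0.01 (SE 0.12). Both genes had groups that overlapped and clone ratios of both signs. Of the 3 clones, clone 7 set the related genes Slc39a10 (-1.73) and Slc39a6 (-0.09) farthest apart.

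**Figure D2:**
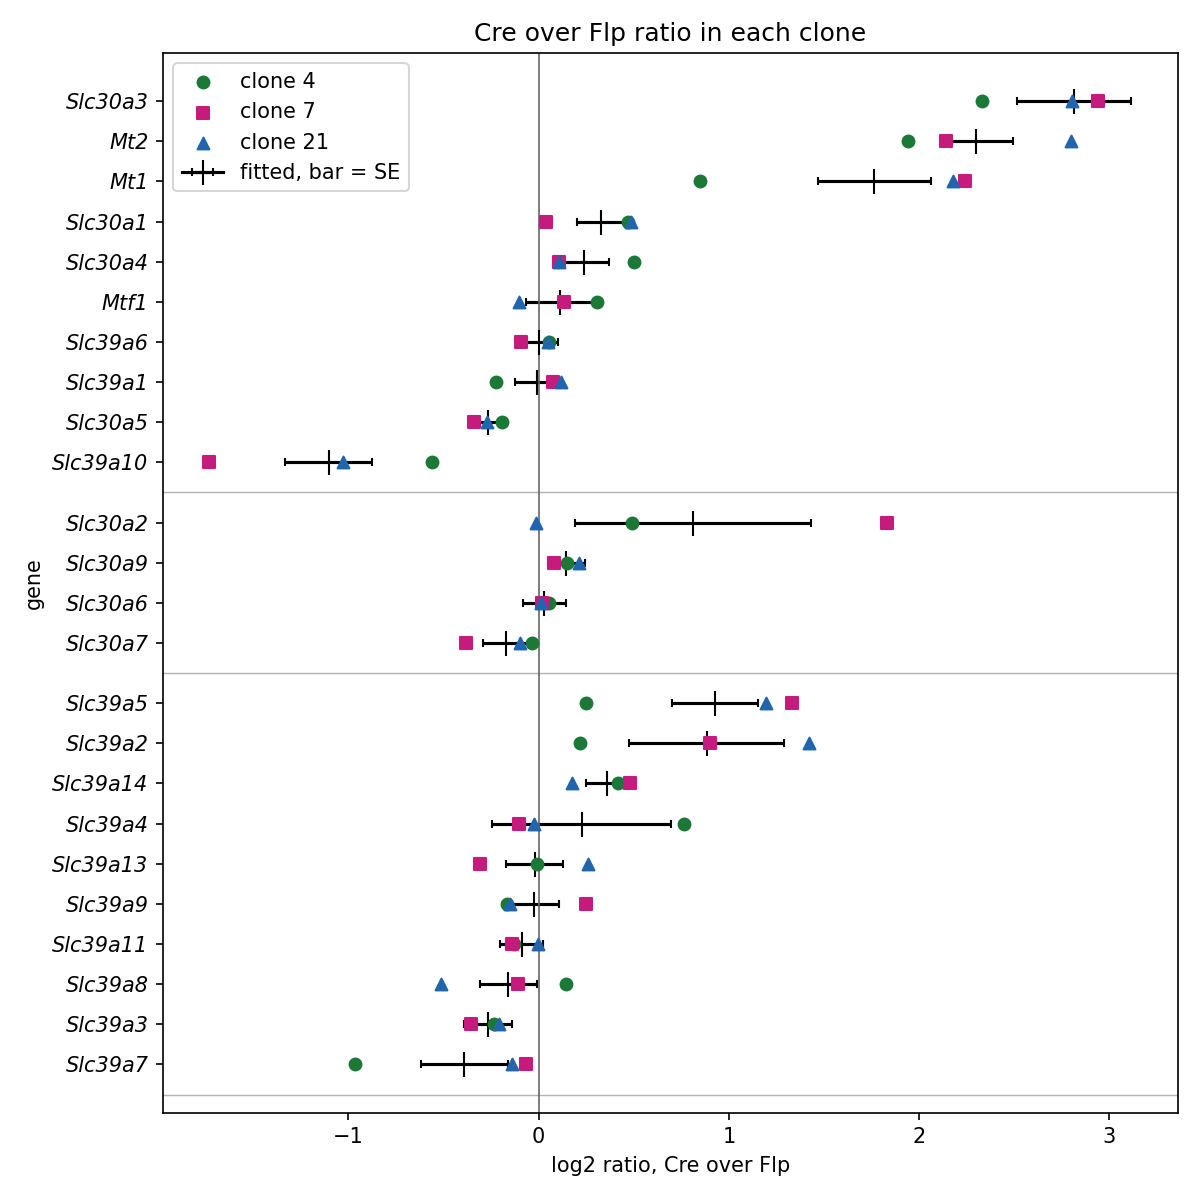
Log2 ratio of Cre over Flp (horizontal axis) in clones 4 (circles), 7 (squares) and 21 (triangles), with the fitted log2 fold change and its SE (black), for the 10 genes, then the other tested SLC30 and SLC39 genes. Slc30a3, Mt2 and Mt1 lie to the right of 0 in every clone and Slc39a10 to the left, and most other transporters lie within 1 unit of 0.

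Counted over the 10 genes, 5 had a log2 ratio above 0 in every clone and 2 a ratio below 0 in every clone. Over all 15355 genes tested these shares were 14.6% and 13.1%. Of the 10 genes, 1 had all Cre libraries above all Flp libraries (4.19% of all genes did) and 2 had all below (3.95%). The median fitted log2 fold change was 0.18 over the 10 genes and 0.00 over all genes tested. Since the ratios took part in the choice of the genes, nothing is read from these counts.

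The same holds for the calls. In edgeR's quasi-likelihood test with clone as a block and Benjamini-Hochberg adjustment, 0 of the 10 genes passed an adjusted p of 0.05, as did 0% of all genes. At an unadjusted p under 0.05 there were 6 of the 10, beside 6.82% of all genes. DESeq2 with the same block called 195 of 15355 genes, or 1.27%, with 0.638% higher and 0.632% lower in Cre. Its calls held Mt1, Mt2 and Slc30a3 as higher and Slc39a10 as lower. The same 4 genes passed when edgeR was run with no filter on low counts, where 0.792% of 28286 genes did. In the authors' deposited table, where 1.37% of 12973 genes passed their adjusted p of 0.05, these 4 also passed. The authors' deposited table gives them log2 fold changes of 1.31 for Mt1, 1.71 for Mt2, 1.49 for Slc30a3 and -0.78 for Slc39a10. These tools read the same reads, so their calls are not separate evidence.

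The comparison between clones, whatever the recombinase, is not the Cre over Flp contrast that took part in the choice. It reads the same 6 libraries, whose earlier results were known when the genes were chosen, so it too is a description. Mt1, Mt2 and Slc30a3 were highest in clone 7, next in clone 21 and lowest in clone 4, in the Cre and in the Flp libraries alike. Averaged over both cultures of a clone, Mt1 was at 143, 611 and 301 CPM in clones 4, 7 and 21. Mt2 was at 27.1, 119 and 90.3 CPM and Slc30a3 at 1.21, 7.84 and 2.87 CPM in clones 4, 7 and 21. Slc39a10 ran the other way, with clone 4 highest and clone 7 lowest in both groups, at means of 96.5, 57.2 and 69.3 CPM in clones 4, 7 and 21. Slc30a4 was lowest in clone 4 and highest in clone 21 in both groups, and Slc30a5 lowest in clone 7 and highest in clone 21.

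In edgeR's test of the clone terms, with the group kept in the fit, 0 of the 10 genes passed after Benjamini-Hochberg adjustment. The share over all genes was 0.00651%, which is 1 gene. At an unadjusted p under 0.05 there were 6 of the 10 (Mt1, Mt2, Slc30a1, Slc30a3, Slc30a4 and Slc39a10), beside 8.0% of all genes. The edgeR adjusted p values were 0.190 for Mt2, 0.251 for Slc30a3, 0.449 for Mt1 and 0.595 for Slc39a10. DESeq2 called 2.70% of all genes between clones, among them Mt1, Mt2, Slc30a3 and Slc30a4. edgeR without the filter called 1.83%, among them Mt1, Mt2, Slc30a3 and Slc39a10. Calls between clones thus depended on the tool and the filter. Since earlier results of these data were known when the genes were chosen, nothing is read from these counts.

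Levels are compared between genes per kilobase of annotated exon, since longer transcripts collect more reads. Mt1 was at 451 ± 334 CPM per kb of exon in Cre, against 113 ± 50.1 in Flp (SD, n = 3), above 99.5% of tested genes in the mean over all libraries. Mt2 followed at 224 ± 134 CPM per kb in Cre, against 44.1 ± 28.3 in Flp (SD, n = 3), and in Cre the difference from Mt1 was smaller than the SD of Mt1. The annotated lengths were 1246 bases for Mt1, which take in its introns, and 588 bases for Mt2, most of them shared with another gene. The distance between these 2 genes per kilobase therefore depends on the annotation. The importers Slc39a1, at 42.8 CPM per kb in Cre and 43.3 in Flp, and Slc39a6, at 35.7 in Cre and 35.6 in Flp, came next. Their difference exceeded either SD in both groups (3.85 and 2.15 CPM per kb in Cre, 6.81 and 1.40 in Flp). The exporter Slc30a1 was at 27.0 CPM per kb in Cre and 21.9 in Flp. Slc30a5 stood at 13.2 CPM per kb in Cre and 15.9 in Flp, Slc39a10 at 8.21 in Cre and 16.2 in Flp, and Slc30a4 at 9.77 in Cre and 8.50 in Flp. Slc39a10 and Slc30a5 did not differ in Flp beyond their spread (SDs of 2.36 and 0.858 CPM per kb), and Slc39a10 and Slc30a4 did not in Cre (4.28 and 1.94). At the low end were Slc30a3, at 2.47 CPM per kb in Cre and 0.330 in Flp, and Mtf1, at 1.69 in Cre and 1.56 in Flp, whose difference in Cre was within the SD of Slc30a3 (2.18).

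Of the 10 genes, Mt2 is the one whose level differs most between the 2 deposited sources. Of its 588 annotated exon bases, 432 (73.5%) lie inside the single exon of Gm45774, an antisense gene on the minus strand of chromosome 8 (94170748 to 94173412), and 156 belong to Mt2 alone. Mt1 shares no exon base with another gene. Reads from the shared bases cannot be assigned without strand, and the sources used here do not state the strand setting of the count. Gm45774 itself had 41, 231 and 218 reads in Cre clones 4, 7 and 21, against 4, 61 and 16 reads in the Flp clones. Its log2 ratios of 2.23, 2.34 and 2.82 lay close to those of Mt2, and reads of the 2 genes in the shared bases cannot be told apart. The introns of Mt2 also lie inside the Gm45774 exon, so without strand, reads of unspliced Mt2 there could count as Gm45774.

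**Figure D3:**
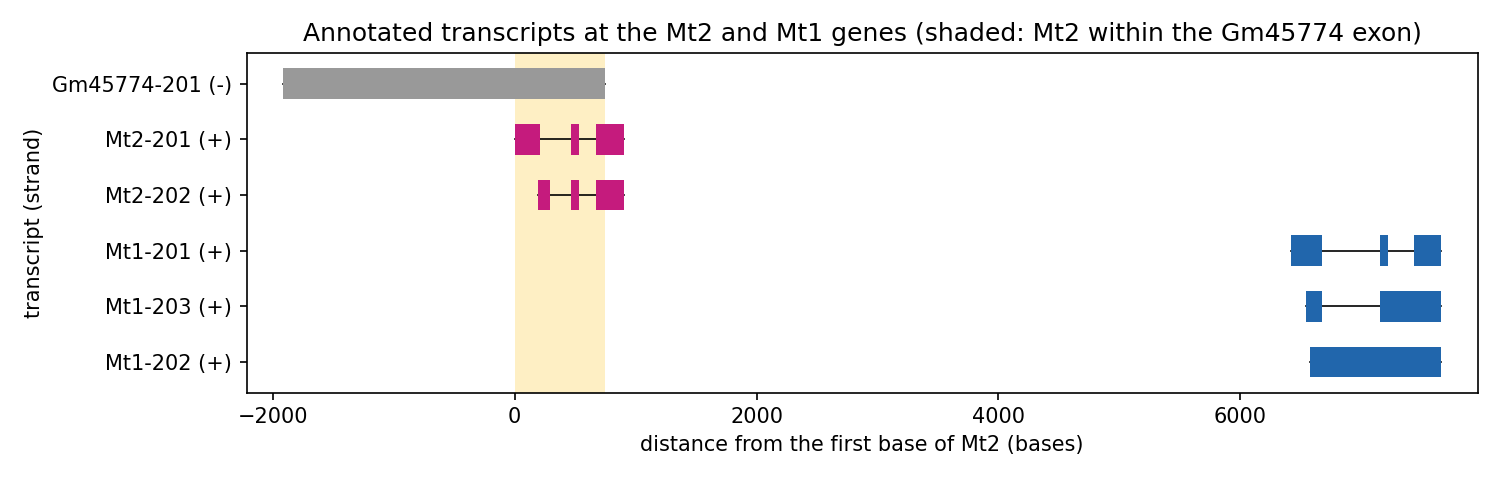
Annotated transcripts of Gm45774, Mt2 and Mt1 (vertical axis, with strand), with exons as boxes and introns as lines, against the distance in bases from the first base of Mt2. The shaded span is the part of Mt2 inside the Gm45774 exon, and Mt1 lies downstream with no overlap.

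The authors' deposited table lists a mean normalised count of 10551 for Mt2, where the 6 count files give 2672, a ratio of 3.95. That ratio was above those of 99.4% of the 11383 genes that could be matched by symbol and had a mean count of at least 50. For Mt1 the authors' deposited table lists 11556 where the count files give 11899, a ratio of 0.97, and for the other 8 genes the ratio was 0.99 to 1.04. Adding the reads of Gm45774 to Mt2 left the ratio at 3.82. By the count files Mt1 therefore had several times the reads of Mt2, and by the authors' deposited table nearly the same number.

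Over all matched genes, the ratio of the 2 sources went with the share of exon bases that another gene covers, in bins set after the values were seen. Its median was 0.991 for the 7344 genes with no such base, 0.997 for the 3501 under 25%, 1.12 for the 411 at 25 to under 50%, 2.06 for the 101 at 50 to under 75% and 2.1 for the 26 at 75% or more. Mt2 is in the fourth of these bins, and lies within its 5th to 95th percentile range of 0.658 to 13.8. The Mt2 reads of the count files were also set against its 156 unshared bases alone. That would give 845 CPM per kb in Cre and 166 CPM per kb in Flp. These values lie above those of Mt1 on its annotated length, which takes in its introns. The order of Mt1 and Mt2 per kilobase thus depends on the bases counted, and Mt1 was not recomputed without its introns. The direction of Mt2 was the same in both sources. The log2 fold change of the authors' deposited table was the smaller one in size for Mt1, Mt2, Slc30a3 and Slc39a10 alike. These fold changes come from separate fits. Slc30a3, whose mean count had a ratio of 0.99 between the sources, was at 1.49 in the authors' deposited table and 2.82 here. The reason for this gap was not tested. Mtf1, Slc30a1 and Slc30a4 share 8.09%, 8.92% and 2.37% of their exon bases with another gene, and their ratios were 1.01, 1.003 and 1.04.

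**Figure D4:**
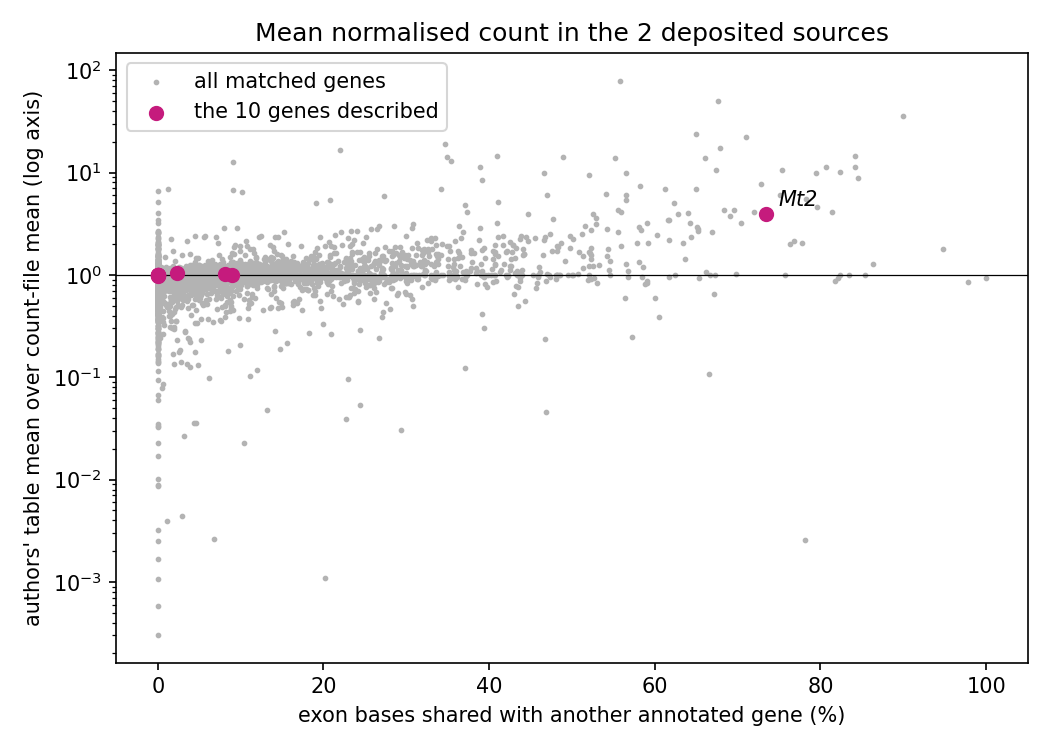
Mean normalised count in the authors' deposited table over that in the count files (log axis) against the percent of exon bases shared with another annotated gene, for 11383 genes (grey) and the 10 genes described (magenta). Mt2 stands at 3.95 with 73.5% shared, and the other 9 lie near 1.

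The other genes of the system are described as lists, from the same fit. Of the other metallothioneins, Mt3 had 3, 6 and 3 reads in Cre clones 4, 7 and 21, against 0, 0 and 1 in the Flp clones, and Mt4 had 0 in every library, so neither entered the test. The filtered edgeR test called 0% of all genes, so 0 calls in any list below say nothing of that list. The other SLC30 exporters had 4 of 6 genes tested, 0 with an unadjusted p under 0.05 and a median log2 fold change of 0.09. Their highest was Slc30a2, at 0.81 (SE 0.62), with 13, 12 and 37 reads in Cre and 5, 3 and 21 in Flp clones 4, 7 and 21, and their lowest Slc30a7, at -0.17 (SE 0.12). The other SLC39 importers had 10 of 11 tested and a median of -0.02, beside a median of 0.00 over all genes tested. Of these 10, 2 (both higher in Cre, Slc39a5 and Slc39a14) had an unadjusted p under 0.05, beside 6.82% of all genes.

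Slc39a5, which encodes ZIP5, an importer of the basolateral membrane in gut and pancreas, was the highest of these. It was at 225, 440 and 257 CPM in Cre clones 4, 7 and 21, against 189, 175 and 113 CPM in the Flp clones, so all Cre libraries lay above all Flp libraries. Its fitted log2 fold change was 0.93 (SE 0.23), and it was the 1 gene of the 10 that DESeq2 called, beside 1.27% of all genes. Slc39a14, a zinc and iron importer on chromosome 14 singled out after its values were seen, also had all Cre libraries above all Flp libraries. It was at 121, 124 and 125 CPM in Cre clones 4, 7 and 21, against 90.6, 88.7 and 110.3 CPM in the Flp clones. Its log2 ratios were 0.42, 0.48 and 0.18 in clones 4, 7 and 21. The 354 expressed genes of chromosome 14 had medians of 0.10, 0.76 and 0.70 in these clones. The part of the chromosome 14 ratios in those of Slc39a14 was not tested. Slc39a7, an importer that releases zinc from the endoplasmic reticulum, was the lowest, at -0.39 (SE 0.23), with log2 ratios of -0.96, -0.07 and -0.14 in clones 4, 7 and 21. Its count is uncertain, since 80.7% of its exon bases are shared with Gm20427, and the authors' deposited table has a mean of 7123 where the count files give 625, a ratio of 11.4. Per kilobase, Slc39a5 at 138 CPM per kb in Cre and 71.4 in Flp was the highest zinc transporter by the count files, above all 7 transporters of the 10 genes.

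Genes of other processes that metallothioneins are known to take part in or answer to were listed too. Of 9 copper handling genes, all tested, 0 had an unadjusted p under 0.05 and the median log2 fold change was -0.09, with the copper exporter Atp7b highest at 0.29 and the copper importer Slc31a1 lowest at -0.23. Of 7 iron handling genes the median was -0.20, with the iron exporter Slc40a1 highest at 0.17 and the importer Slc11a2 lowest at -0.57 (SE 0.14). In Slc11a2 the clone ratios were -0.28, -0.83 and -0.60. The count of the ferritin gene Ftl1 in this list is uncertain, since 34.6% of its exon bases are shared with other genes. The authors' deposited table has a mean of 9171 for Ftl1 where the count files give 483, a ratio of 19.0. Of the 7 iron genes, 3 (Slc11a2, the transferrin receptor gene Tfrc at -0.53 and the ferritin gene Fth1 at -0.29, all lower in Cre) had an unadjusted p under 0.05, beside 6.82% of all genes, and 0 were called by DESeq2. Of 8 heavy metal and heat shock response genes the median was 0.05, with the chaperone Hsph1 at 0.59 (SE 0.18) and Hspa1b at -0.13 (SE 0.17). Of 8 glucocorticoid response genes, 7 were tested with a median of 0.30, with the receptor gene Nr3c1 at 0.59 (SE 0.16) and the kinase gene Sgk1 at -0.42 (SE 0.44). In each of the last 2 lists 1 gene, Hsph1 and Nr3c1, had an unadjusted p under 0.05.

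The likeness of other genes to Mt1 was measured by Pearson's r of log2 CPM over the 6 libraries, as a description: the libraries share clones and a recombinase, and no p is given. Slc30a3 had r = 0.979 with Mt1 (rank 34 of 15354) and Mt2 had r = 0.960 (rank 103), while Slc39a10 had r = -0.977 (rank 15324). Among genes outside the list with at least 5 CPM, the 5 most alike were Vwa8 (0.995), Ptk2b (0.994), Zcchc2 (0.993), Msra (0.993) and Fam160b2 (0.990). Of these, 4 lie on chromosome 14, which holds 3.30% of the genes ranked. The 354 expressed genes of chromosome 14 had median log2 ratios of 0.10, 0.76 and 0.70 in clones 4, 7 and 21, and the clone ratios of Mt1 also stood lower in clone 4 than in clones 7 and 21. The part of the chromosome 14 ratios in this likeness was not tested. For Slc30a3 the 5 most alike were Bcl2l2 (0.985), Atp2a2 (0.984), Ap4s1 (0.984), Pcdh10 (0.980) and Cep63 (0.980), of which 1 lies on chromosome 14.

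The genes around the 10 were summarised in the same way, in windows chosen after the data were seen. Around Mt1 and Mt2, the 38 genes within 5 Mb with at least 5 CPM had median log2 ratios of -0.03, 0.04 and 0.00 in clones 4, 7 and 21. Around Slc30a3 the 75 neighbours had medians of -0.04, 0.04 and -0.03, and around Slc39a10 the 17 neighbours 0.12, -0.05 and -0.04. The widest neighbour medians were -0.23 for the 104 genes around Slc30a4 and 0.17 for the 21 around Slc39a6, both in clone 21, where Slc30a4 itself stood at 0.11 and Slc39a6 at 0.05. The part of regional ratios in the ratios of the 10 genes was not tested.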

How the data were processed

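The members and lists were chosen with earlier results of these data known. The tools, per the submitters' processing notes, were DESeq2 2.11.40.1, featureCounts 1.6.0.3, STAR 2.5.2b-2, Trim Galore 0.4.3.0 and FastQC 0.67, and the builds mm10 and GRCm38. The sources used here do not state the strand setting, the read layout or the annotation release. The authors deposited raw counts for each of 49671 Ensembl genes in each library. The authors also deposited a table with the mean of normalised counts (a signal over all libraries), a Wald score, a log2 fold change with its standard error, and raw and adjusted p-values. Its fold change was read as Cre over Flp because 95.6% of 12823 signs matched those of the counts.

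Symbols and exons came from GENCODE M21 (GRCm38), which held 49326 of the identifiers, and promoter sequences from the RefSeq table (GRCm38.p6). In R 4.3.3, edgeR 4.0.16 was run with filterByExpr, TMM scaling and clone as block. The fit left 2 residual degrees of freedom per gene, and the quasi-likelihood F test of the group term also drew on variance shared over genes. P-values were Benjamini-Hochberg adjusted over all genes tested. Log2 ratios per clone used a prior count of 2. The SE of a fitted log2 fold change was its absolute value over the square root of the edgeR F statistic. Alternatives used DESeq2 1.42.0, limma 3.58.1 (voom), 3 other normalisations, other filters, no block and leaving out each clone. The series pairs each Cre clone with its own Flp clone. The correlation of deviations from group means was 0.20, 0.11 and 0.30 for the pairs of clones 4, 7 and 21, and -0.27 to 0.02 between clones. The fits were tested on simulated data. Named genes were the 10 members, Pkd1, the highest and lowest tested gene of each other list, the 5 genes most like Mt1 and like Slc30a3, and overlapping genes. Outside this rule, Mt3, Mt4, Slc39a14, Tfrc, Fth1, Ftl1 and the named markers were added after their values were seen. Protein sequences were not used here. Figures were drawn with matplotlib 3.10.9.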

Additional observations from a re-analysis of the deposited data

How the results depend on the processing

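Between Cre and Flp, 0 genes and 0 of the 10 described genes were called in edgeR under 3 other normalisations, a floor of 1 CPM, no replicate block and leaving out any clone (0 to 0), and in limma-voom. Calls appeared without the filter on low counts (224 genes, 4 of the 10) and in DESeq2 with the clone block (195 genes, 4 of the 10). DESeq2 with no replicate block called 13 genes and 0 of the 10. Between clones, 1 gene was called in the reported fit, and the count was 519 without the filter, 414 in DESeq2, 0 with a floor of 1 CPM, 0 in limma-voom, 2 with no group term and 0 to 4 when a clone was left out (0 without clone 4, 4 without clone 7). Of the 10 genes, 4 were called between clones without the filter and 4 in DESeq2, and 0 to 0 when a clone was left out. The cause of these differences was not tested. Fitted log2 fold changes kept their sign under 12 of 12 alternatives for 8 genes and under 9 of 12 for Slc39a1 (-0.08 to 0.10) and Slc39a6 (-0.02 to 0.05). Leaving out a clone moved Mt1 most, to 1.52 without clone 7 and 2.21 without clone 4, and Slc39a10 to -0.79 and -1.38 in the same order. Mt2 stayed between 2.04 and 2.47 and Slc30a3 between 2.71 and 2.94. The table ratio of Mtf1 fell to 0.665 with the overlapping gene 1110065P20Rik added. Slc30a3 in Flp rests on 9 to 71 reads, which limits its ratios.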
